A study of Mus musculus with 4 samples.

Results

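The 7 genes described here encode subunits of cardiac T-type and L-type calcium channels, namely Cacna1g, Cacna1h, Cacna1c, Cacna1d, Cacna2d1, Cacna2d2 and Cacnb2. They were chosen by name, with earlier results of these data known. Every non-control probe that carries one of these names was taken, which gave 21 of the 41174 probes on the array. RNA came from the atrioventricular canal (AVC), the segment between the embryonic atria and ventricles, of mouse hearts at e10.5, counted in days from the plug. Mutant embryos carried a Tbx3 genotype that the series describes as hypomorphic, meaning reduced function, and control embryos were wild type; both were on a mixed Sv129 and C57Bl6 background with equal shares. How the Tbx3 allele was built is not given in the sources used here. A sample is a pool of canals from 5 hearts, and each of 4 arrays carried 1 mutant pool labelled with Cy5 and 1 control pool labelled with Cy3. The mutant was in the same dye on all 4 arrays, so a dye effect on a given probe and an effect of genotype cannot be told apart. Because the pools are tissue, fewer cells of a type and less RNA per cell cannot be told apart either. Ratios are mutant over control on the log2 scale, n = 4 arrays throughout.

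Voltage-gated calcium channels are built around a pore-forming alpha1 subunit. T-type channels, whose pores in the heart come from Cacna1g and Cacna1h, open at membrane voltages close to rest, close quickly, and take part in pacemaking and in conduction through the atrioventricular node. L-type channels, whose cardiac pores come from Cacna1c and Cacna1d, need stronger depolarization, close more slowly, and carry the calcium that triggers contraction and the slow upstroke of nodal cells. The L-type pore binds an alpha2delta subunit on its outer side (Cacna2d1 or Cacna2d2) and a beta subunit on its inner side (Cacnb2), which bring the pore to the surface and adjust its gating. The AVC at this stage conducts slowly and gives rise to part of the adult conduction system, where Tbx3 acts as a T-box repressor of chamber genes.

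The array reads each gene through 60-base probes. The sequences below are those of both Cacna1g probes and the 2 brightest Cacna2d2 probes, with 1 of the 5 probes that cover separate stretches of the genome. All are printed 5′ to 3′ as the files give them, in lower case throughout. Coordinates follow the files' own column in mouse build mm7, and the position of probes within exons or untranslated regions was not analysed here. The brighter Cacna1g probe, A_51_P466910, lies at chr11:94517588-94517647 on the minus strand, and its first 30 bases are shown. The dimmer Cacna1g probe, A_52_P611610, lies 1054 bases to its 5′ side at chr11:94518642-94518701.
Cacna1g A_51_P466910, first 30 bases: catcttcaacggaaagcgagaaccattttg
Cacna1g A_52_P611610: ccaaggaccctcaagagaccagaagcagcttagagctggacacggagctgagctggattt
Neither Cacna1g probe shares a run of more than 14 bases with any of the other 41173 probes; the longest runs were 14 bases with a Dock8 probe and 13 bases with a Pof1b probe. The GC content of the brighter probe is 36.7% and that of the dimmer probe 55%. The 2 brightest Cacna2d2 probes lie 219 bases apart on the plus strand of chromosome 9, at chr9:107258230-107258289 for A_52_P457888 and chr9:107258011-107258070 for A_52_P457895, with 38.3% GC in the first and 50.0% in the second. They are shown because their ratios took opposite signs.
Cacna2d2 A_52_P457888, first 30 bases: gggggagggtgatacattaattaatggctt
Cacna2d2 A_52_P457895, first 30 bases: ctaggaggccaaattacccctcccttgctg
The Cacna1h probe A_52_P611158 has 60 bases but spans 1353 bases of the genome, at chr17:23577104-23578456 on the minus strand, so its sequence joins pieces that lie apart there.
Cacna1h A_52_P611158: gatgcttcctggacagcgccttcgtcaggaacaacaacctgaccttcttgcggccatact
No run shared between any pair of the 21 probes was longer than 9 bases.

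Of the 21 probes, 20 entered the test, which asked for a signal well above background in either channel on 3 or more arrays, and the exception was the Cacna1d probe A_51_P215266, above background in 1 mutant channel and 0 control channels. None of the 21 was saturated. Median spot signals lay between 175.1 and 232.5 in mutant channels and between 117.9 and 133.5 in control channels before normalization. Array 2 stood apart: its log2 ratios had an SD of 0.49 over all genes, against 0.26 to 0.29 on the other arrays. The summed intensity of the 8 measured among 10 uterus or decidua markers (Pgr and Prl3c1 missed the filter) was 26617 in control pool 2, against 8349 to 9025 in the other control pools, and that of 6 cushion mesenchyme markers was 355603, against 76043 to 80860. Tbx3 itself had 12.68, 12.84, 12.68 and 12.78 log2 units in the mutant pools, against 14.02, 14.25, 14.11 and 13.98 in the control pools. It fell in the mutant, with a ratio of -1.35 ± 0.10 (SD; limma adjusted p = 0.0454), and a dim second Tbx3 probe read -0.14 ± 0.12. This call was lost without array 1, 3 or 4 (adjusted p = 0.346, 0.605 and 0.510), with the smaller offset (adjusted p = 0.0668), in the deposited ratio (adjusted p = 0.0547) and with the mean of both probes (-0.74, adjusted p = 0.119). All 8 cardiomyocyte markers passed the filter on dim probes.

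Cacna1g is a T-type pore subunit that serves pacemaking and atrioventricular conduction in the adult mouse. In mutant canals it read about 0.488 times the control level by its brighter probe and 0.787 times by its dimmer probe. Its brighter probe had levels of 8.35, 8.31, 8.09 and 8.04 log2 units in mutant pools 1 to 4, against 9.38, 9.62, 8.97 and 8.96 in the control pools. Every mutant pool was below every control pool, as for 5.1% of all genes, and the group means were 8.20 ± 0.15 and 9.23 ± 0.32 (SD). The log2 ratio was -1.03, -1.31, -0.88 and -0.92 on arrays 1 to 4, a mean of -1.04 ± 0.19 with a 95% interval of -1.26 to -0.81. The limma test over 19099 genes gave an adjusted p of 0.0951, so Cacna1g did not pass the threshold of 0.05, which 0.00524% of all genes passed (Tbx3 alone). It was among the 0.136% of genes under an adjusted p of 0.1, and 31 genes, itself counted, had a mean at or below its mean. Without array 2 the ratio was -0.94 and passed (adjusted p = 0.0335), in a setting where 0.927% of all genes passed; without array 1, 3 or 4 the adjusted p was 0.346, 0.605 and 0.576.

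**Figure D1:**
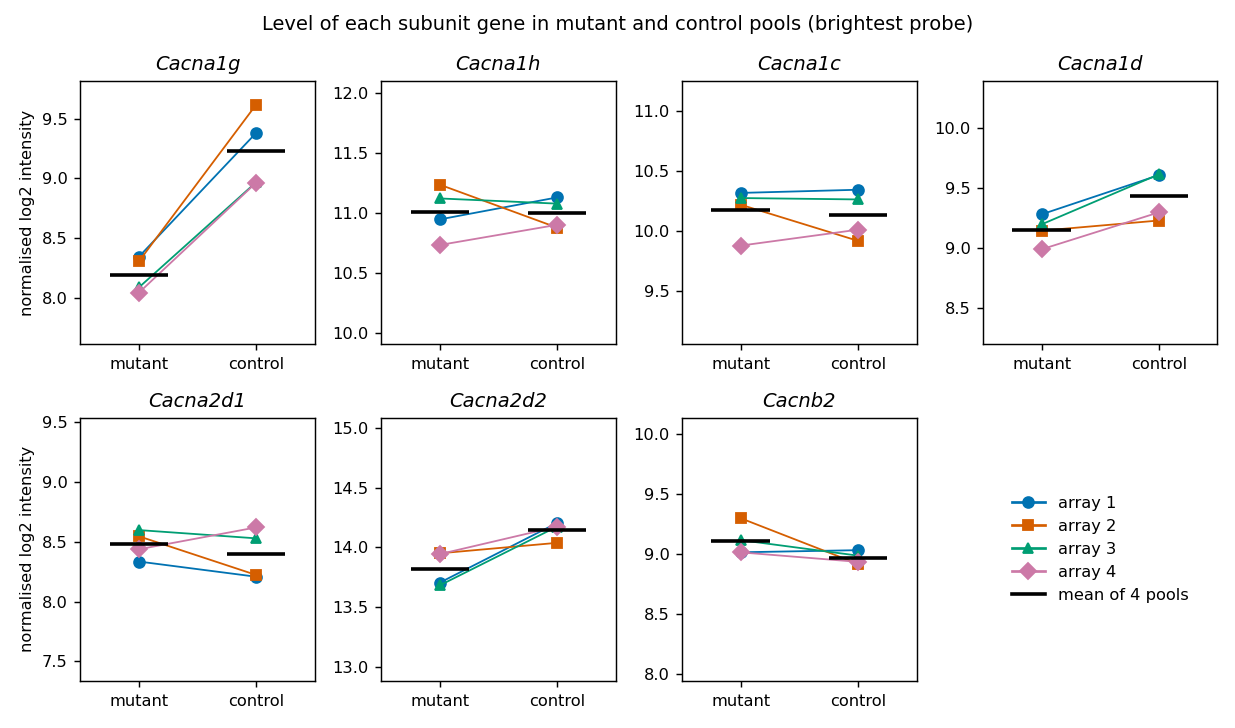
Normalised log2 intensity of the brightest probe of each of the 7 genes in mutant pools (left in each panel) and control pools (right); points joined by a line share an array and black bars are means of 4 pools. The Cacna1g mutant levels, 8.04 to 8.35, all lie below the control levels, 8.96 to 9.62, and the Cacna2d2 mutant levels, 13.68 to 13.95, lie below the control levels, 14.04 to 14.20. Of all genes 5.1% had mutant levels below all control levels.

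The second Cacna1g probe also read lower in the mutant on all 4 arrays, by an amount that depended on how background was treated. With the offset of 50 added during background correction its ratios were -0.14, -0.45, -0.41 and -0.38, a mean of -0.34 ± 0.14 (adjusted p = 0.195 over 28806 probes). Its mutant levels, 6.38 to 6.74, overlapped its control levels, 6.64 to 7.19. Its signal above local background was 38.1, 79.5, 30.7 and 31.3 in the mutant pools and 31.4, 71.1, 40.4 and 45.3 in the control pools before normalization, which is of the size of the offset itself. In the ratio the authors deposited, which has no such offset, the dim probe read -0.80, -0.68, -1.36 and -1.33, a mean of -1.04 ± 0.35, and the bright probe -1.24 ± 0.10. With an offset of 16 the dim probe read -0.51, and with the processed signals of the scanner software -1.07. The bright probe minus the dim probe was -0.69 ± 0.22 with the offset of 50, lower on 4 of 4 arrays (exact sign-flip permutation p = 0.125, 2-sided), and -0.20 ± 0.45 in the deposited ratio, lower on 2 of 4 (exact p = 0.5). With 4 arrays 0.125 is the smallest p this test can give.

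**Figure D2:**
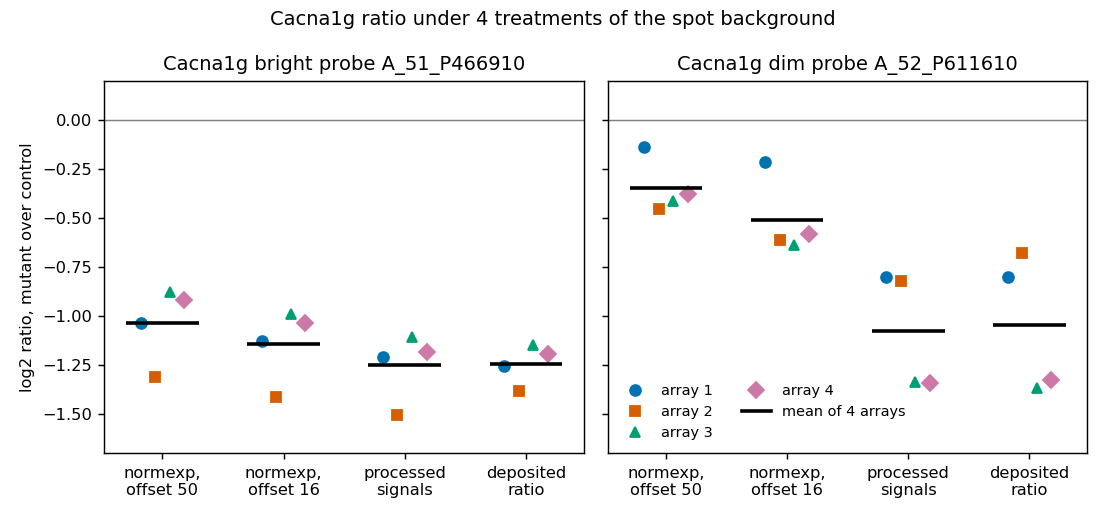
Log2 ratio of mutant over control on each array (points) and its mean (bars) for the bright and the dim Cacna1g probe under 4 treatments of the spot background. The bright probe has means between -1.25 and -1.04, while the mean of the dim probe is -0.34 with the offset of 50 and -1.04 in the deposited ratio.

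Marker sums of other cells are given beside the Cacna1g value, and their part in it was not tested. The 8 AVC markers, a list that includes Tbx3, summed to 30545 to 38409 in mutant pools and 49497 to 56497 in control pools, with a median ratio of -0.31 and 6 of 8 means below 0. On arrays 1 to 4 the median of that list was -0.55, 0.15, -0.59 and -0.37. Hcn4, the pacemaker channel in that list, stood at 0.02 ± 0.09. The 6 cushion mesenchyme markers summed to 57611 to 62441 in mutant pools and 76043 to 355603 in control pools, with a median ratio of -0.46, 5 of 6 means below 0 and 4 genes lower on all 4 arrays. The 8 uterus or decidua markers summed to 7923 to 14207 in mutant pools and 8349 to 26617 in control pools, with a median ratio of -0.42 over the means and of -2.49 on array 2. The 8 cardiomyocyte markers ran the other way, at 932625 to 1100955 in mutant pools and 577160 to 724969 in control pools. Their median ratio was 0.52, with 7 of 8 means above 0. Neuron markers, included because neurons also use Cacna1g, summed to 5002 to 6561 in mutant pools and 5147 to 5807 in control pools, with a median ratio of 0.04 over the 9 genes measured. Smooth muscle markers summed to 271193 to 304926 in mutant pools and 232983 to 243124 in control pools, though their median ratio was 0.06, with 3 of 7 means below 0. Endocardial markers summed to 19802 to 21886 in mutant pools and 19739 to 21627 in control pools, with a median ratio of 0.0042. The sums for epicardial markers were 22808 to 32357 in mutant pools and 18639 to 21697 in control pools, with a median ratio of 0.21. Those for erythroid markers were 702897 to 1058290 in mutant pools and 256390 to 663972 in control pools. The erythroid median ratio was 0.84 over the means, and 1.97, 0.99, -0.22 and 0.11 on arrays 1 to 4.

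Cacna1h, the other T-type pore subunit of the heart, showed no difference past the test through any of its 4 probes. Its brightest probe, at chr17:23557893-23557952, had 10.95, 11.24, 11.12 and 10.73 log2 units in mutant pools, against 11.13, 10.88, 11.08 and 10.90 in control pools. The groups overlapped, and the ratio was positive on arrays 2 and 3 and negative on arrays 1 and 4. The mean was 0.01 ± 0.25 (adjusted p = 0.971), and its 95% interval of -0.26 to 0.29 does not reach the Cacna1g value. The other 3 probes read -0.16 ± 0.14, 0.09 ± 0.21 and -0.08 ± 0.07. The last of these is the Cacna1h probe whose 60 bases are printed in full above, and it was above background in 4 mutant and 3 control channels. Without array 2 the gene's mean was -0.10 (adjusted p = 0.462).

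Between the L-type pore subunits, Cacna1c gave means near 0 and Cacna1d stood a little lower in the mutant, without passing. Cacna1c, the main L-type pore of working heart muscle, had 10.32, 10.22, 10.28 and 9.88 log2 units in mutant pools, against 10.34, 9.92, 10.26 and 10.01 in control pools. These ranges overlapped, with a mean ratio of 0.04 ± 0.19 (95% interval -0.18 to 0.26; adjusted p = 0.877), and a second probe 301 bases away read -0.06 ± 0.34. Without array 2 the Cacna1c mean was -0.05 (adjusted p = 0.695). Cacna1d, the L-type pore that opens at lower voltages and serves pacemaker cells, had 9.28, 9.14, 9.20 and 8.99 in mutant pools, against 9.61, 9.23, 9.62 and 9.30 in control pools. Its ratio was below 0 on all 4 arrays although the groups overlapped, at -0.28 ± 0.14 (95% interval -0.48 to -0.09; adjusted p = 0.217). That is 0.821 times the control level, with an interval of 0.719 to 0.937. With median centring in place of loess the mean was -0.041 (limma adjusted p = 0.750), lower on 3 of 4 arrays. The median of all genes was 0.23 in that setting. In the deposited ratio the Cacna1d mean was -0.31, also lower on 3 of 4. The other 2 Cacna1d probes that entered the test read -0.21 ± 0.31 and -0.11 ± 0.24, each below 0 on arrays 1, 3 and 4 and above 0 on array 2, and the probe that missed the filter read -0.07 ± 0.14. Without array 2 the Cacna1d mean was -0.35 (adjusted p = 0.0712).

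Cacna2d1 and Cacnb2, an alpha2delta and a beta subunit, gave small positive means that did not pass. Cacna2d1, the alpha2delta subunit best known from heart and skeletal muscle, had 8.34, 8.55, 8.60 and 8.44 log2 units in mutant pools, against 8.21, 8.22, 8.53 and 8.62 in control pools. Its mean ratio was 0.08 ± 0.21 (adjusted p = 0.724), its second probe read 0.09 ± 0.19, and both probes were above 0 on arrays 1 to 3 and below 0 on array 4. Without array 2 the Cacna2d1 mean was 0.0045 (adjusted p = 0.980). Cacnb2, the main cardiac beta subunit, had 9.01, 9.30, 9.12 and 9.01 in mutant pools, against 9.03, 8.92, 8.99 and 8.93 in control pools. Its mean ratio was 0.14 ± 0.17 (95% interval -0.07 to 0.35; adjusted p = 0.498), and its other probes read 0.22 ± 0.34 and 0.09 ± 0.12. All 3 Cacnb2 probes had positive means, and without array 2 the gene's mean was 0.06 (adjusted p = 0.602).

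Cacna2d2, an alpha2delta subunit known best from brain, where its loss causes the ducky phenotype of mice, gave opposite readings from its 2 brightest probes. Probe A_52_P457888 had 13.71, 13.95, 13.68 and 13.94 log2 units in mutant pools, against 14.20, 14.04, 14.17 and 14.17 in control pools. All mutant pools thus lay below all control pools, as for 4.0% of all tested probes. Its mean ratio was -0.33 ± 0.20 (95% interval -0.56 to -0.09; adjusted p = 0.239), with -0.09 on array 2 and -0.50 to -0.23 on the others. Probe A_52_P457895, whose bases are printed above beside it, had 12.34, 12.54, 12.19 and 12.26 in mutant pools, against 12.23, 12.08, 12.13 and 12.25 in control pools. It was above 0 on all 4 arrays, at 0.11, 0.46, 0.06 and 0.01, with overlapping groups and a mean of 0.16 ± 0.20 (adjusted p = 0.514 over probes). The first minus the second was -0.49 ± 0.17, lower on 4 of 4 arrays (exact sign-flip permutation p = 0.125, the smallest possible). This pair, 1 of 21 probe pairs compared, was singled out for its opposite signs, so that p is no independent test of it. The remaining probes read 0.03 ± 0.45 and -0.04 ± 0.17, and the mean over all 4 probes of the gene was -0.04 (adjusted p = 0.887). The sign given for Cacna2d2 therefore follows from the choice of probe. When arrays were centred on their median in place of loess the brightest probe read 0.19, where the median of all genes was 0.23. Without array 2 the brightest probe read -0.41 (adjusted p = 0.0798).

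**Figure D3:**
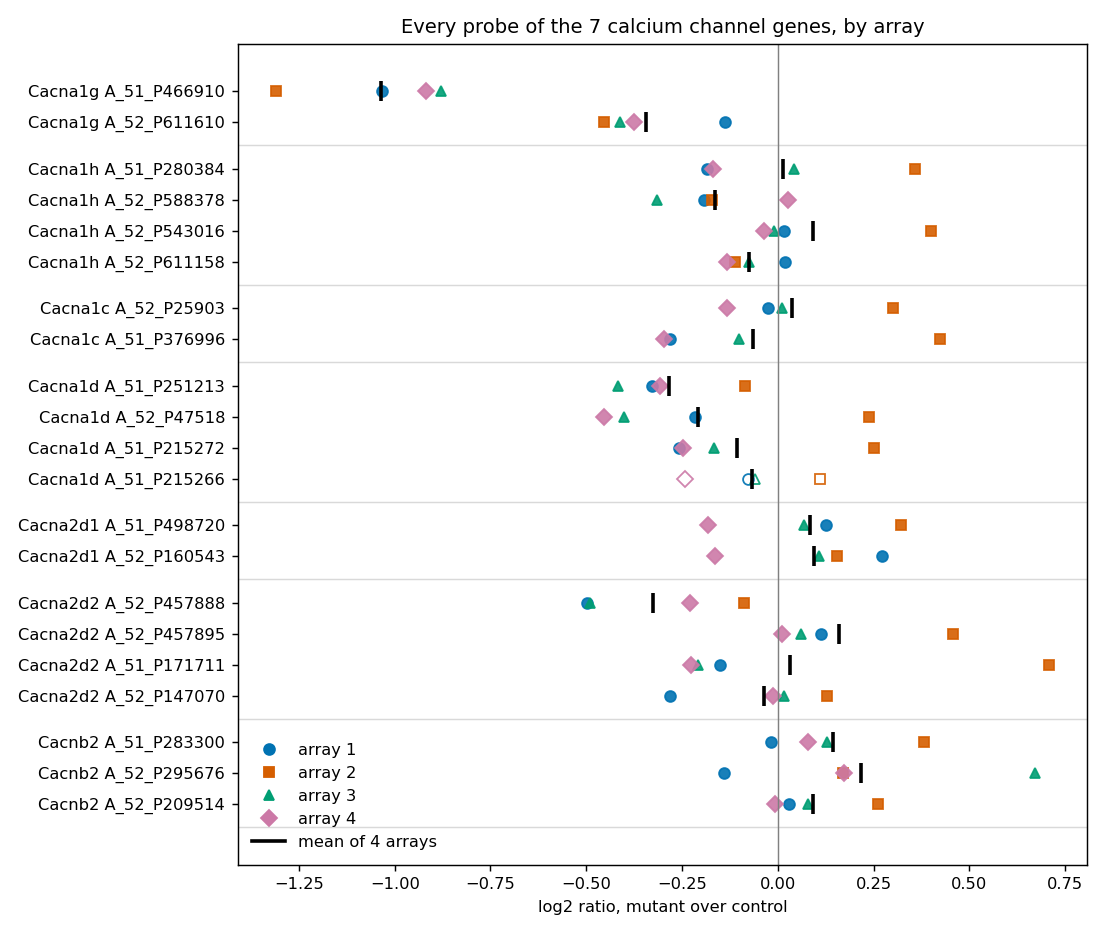
Log2 ratio of mutant over control on each array for all 21 probes, grouped by gene with the brightest probe of each gene on top; black ticks are means of 4 arrays and open symbols mark the Cacna1d probe that missed the filter. Both Cacna1g probes lie left of 0 on all arrays, and the brightest pair of Cacna2d2 probes lie on opposite sides of 0. Array 2 gives the highest ratio for 14 of the 20 probes tested, against 31.4% of all tested probes.

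Over the 7 genes, 0 passed an adjusted p of 0.05 by limma, and 3 (Cacna1g, Cacna1d and Cacna2d2) had an unadjusted p under 0.05, all lower in the mutant, where 7.45% of all genes were lower at that level and 14.5% were either way. Without array 3, and with the mean over all probes of a gene, Cacna1g alone was under that level, and without array 1 Cacna1g and Cacna1d were. With median centring 52.5% of all genes were under that level, and the median of all genes was 0.23. The 4 genes there were Cacna1g, lower, and Cacna1h, Cacna1c and Cacnb2, higher. Among the 20 tested probes 4 were under an unadjusted p of 0.05, all lower in the mutant, where 6.15% of all probes were lower and 13.7% were either way. Of the 21 probes, 4 were lower on all 4 arrays (10.7% of all tested probes) and 1 was higher on all 4 (13.0%). Levels of mutant and control pools did not overlap for 2 of the 21 probes, both lower in the mutant, where 4.0% of all tested probes were so. Because the 7 genes were chosen with earlier results of these data known, these counts do not test them as a set. The median of the 7 gene means was 0.01, and that of all genes 0.0012. Array 2 gave the highest ratio for 6 of the 7 genes, where it did for 29.5% of all genes, and Cacna1g was the exception, with its lowest ratio there.

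By the brightest probe of each gene, Cacna1g had a lower ratio than every other member on 4 of 4 arrays. The differences were -1.05 ± 0.42 from Cacna1h, -1.07 ± 0.37 from Cacna1c, -0.75 ± 0.33 from Cacna1d, -1.12 ± 0.38 from Cacna2d1, -0.71 ± 0.36 from Cacna2d2 and -1.18 ± 0.34 from Cacnb2. Each of these 6 comparisons gave an exact sign-flip permutation p of 0.125, the smallest 4 arrays allow, so none can pass 0.05. The gap was widest on array 2 for all 6, at -1.69 to -1.22, and lay between -1.16 and -0.39 on the other arrays.

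Of 19 other calcium channel subunit genes, 12 passed the filter, and none passed the test at either an adjusted p of 0.05 or 0.1. Their median ratio was 0.04, with 4 means below 0 and 8 above. By limma 1 had an unadjusted p under 0.05, against 14.5% of all genes. That gene was Cacna2d3, a neuronal alpha2delta subunit, at -0.26 ± 0.15 (limma adjusted p = 0.250). It was lower on 4 of 4 arrays, as were 12.6% of all genes. Cacng7, a gamma-family subunit known from brain, was the one higher on all 4 arrays, at 0.15 ± 0.07 (limma adjusted p = 0.358). Of all genes 12.3% were higher on all 4. The pore subunit genes Cacna1b, Cacna1e, Cacna1f and Cacna1i, the last a T-type pore known from brain, did not pass the filter, nor did Cacna2d4, Cacng1 and Cacng3.

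**Figure D4:**
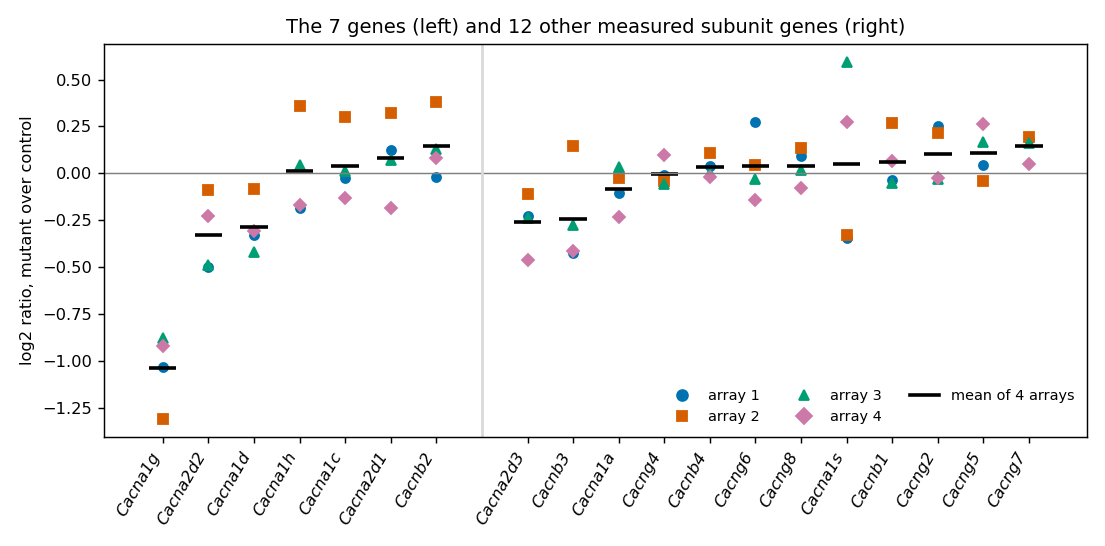
Log2 ratio of mutant over control on each array (points) and mean (black bars) for the 7 genes (left) and the 12 other subunit genes that passed the filter (right), each side ordered by mean. By the brightest probe of each gene, Cacna1g, at -1.04, lies apart from the other 18 genes, whose means lie between -0.33 and 0.15. The dim Cacna1g probe, not shown, had a mean of -0.34.

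Genes that regulate these channels or handle the calcium they admit gave no call either. Of 30 regulators 27 passed the filter, with a median of 0.03, 12 means below 0 and 15 above; 1 was lower and 4 were higher at an unadjusted p under 0.05, where 7.45% of all genes were lower and 7.09% higher. Those with one sign on all 4 arrays and the largest means were Rcan1, an inhibitor of calcineurin that calcium signalling itself induces, at 0.43 ± 0.16 (adjusted p = 0.144), and Ppp3ca, the calcineurin catalytic subunit, at -0.25 ± 0.07 (adjusted p = 0.202). They were followed by the calmodulin gene Calm2 at 0.23 ± 0.13 (adjusted p = 0.278) and Akap5, an anchor for protein kinase A at L-type channels, at 0.20 ± 0.13 (adjusted p = 0.303). Of 23 genes of the sarcoplasmic reticulum and calcium transport 22 passed the filter, with a median of 0.03, and 1 was lower and 5 were higher at an unadjusted p under 0.05, against the same shares of all genes. The mitochondrial uniporter pore Mcu stood at 0.28 ± 0.17, the junctional protein Jph1 at 0.21 ± 0.11, the luminal calcium-binding protein Hrc at 0.20 ± 0.05 and the ryanodine receptor Ryr2 at 0.19 ± 0.13, with adjusted p values of 0.240 to 0.329 by limma. The other genes under that level, which did not keep one sign on all arrays and are named after their values were seen, were the calcium pump Atp2a2 at 0.47 ± 0.34, its inhibitor Pln at -0.35 ± 0.35 and the calmodulin kinase gene Camk2a at 0.65 ± 0.57.

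Across 19096 other genes with a ratio on every array, the 4 ratios of Tceal6, a transcription elongation factor A-like gene, lay nearest to those of Cacna1g, at a root mean square difference of 0.098 log2 units, with -1.01, -1.32, -0.86 and -1.11. Strip2 followed at 0.241, Gtsf1 at 0.284, the unnamed transcript BU562039 at 0.286 and Tceal3 at 0.307, where the median over all genes was 1.07. Their means were -0.83 for Strip2, -0.91 for Gtsf1, -0.81 for BU562039 and -0.74 for Tceal3. The likeness is a description over 4 arrays, chosen for its smallness. With the Cacna1g mean at -1.04 and the median of all genes at 0.0012, the median distance of 1.07 does not gauge likeness in pattern.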

How the data were processed

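Per the labels, total RNA was amplified linearly and hybridised to 2-colour arrays. The authors deposited, per the file headers, scanner output of Agilent Feature Extraction 9.5.1 with mean spot intensity and local background. The authors also deposited a log10 ratio of Cy5 to Cy3, thus mutant over control, which the series table repeats within 5e-07. From the intensities, background was corrected (normexp, offset 50) and each array was normalised by loess, control spots having weight 0 (R 4.3.3, limma 3.58.1). Of 41174 probes 28806 were kept (signal well above background in either channel on 3 or more arrays). Where a gene had several, its brightest probe stands for it, giving 19099 genes. Ratios were tested against 0 with lmFit and eBayes, 2-sided, Benjamini-Hochberg adjusted over all genes or all probes. The fit was tested on simulated data. Marker sums are of linear normalised intensities. Differences between ratios used exact sign-flip tests, 6 between genes and 21 between probes, unadjusted. All members and every probe were named, with Tbx3, up to 4 genes of 1 sign on all arrays per list, and the 5 nearest to Cacna1g. Members and lists were chosen with earlier results of these data known. Probe positions follow the files (mm7). The number of arrays limits the precision. There were 15 alternatives; array weights for probes were added after the data were seen.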

Additional observations from a re-analysis of the deposited data

Results flagged for a closer look

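Among 63 groups of 4 values (ratios, mutant levels and control levels of the 21 probes), 3 held a sample whose gap from the others exceeded Dixon's 95% limit, and chance flags about 1 in 20 groups. All 3 were on array 2. The Cacna1h probe A_52_P543016 had a ratio of 0.40 there, against -0.04 to 0.02 on the other arrays. The Cacna2d2 probe A_51_P171711 had a ratio of 0.71 there, against -0.23 to -0.15. The control level of the Cacnb2 probe A_52_P209514 was 6.83 log2 units in pool 2, against 7.01 to 7.04 in the other control pools.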

How the results depend on the processing

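Cacna1g stayed negative under all 15 alternatives, from -1.25 to -0.69, the latter as the mean of its 2 probes (limma adjusted p = 0.138). It kept the main ratio of -1.04 unchanged with no filter or a stricter filter on dim probes, with non-uniform spots kept and with an intensity trend in eBayes. It passed the threshold under 3: median centring (-0.83, adjusted p = 0.00284), array weights (-0.96, adjusted p = 0.0269) and without array 2 (-0.94, adjusted p = 0.0335). Leaving out each array gave -1.09 to -0.94. The count of genes passing was 2 of 7 with median centring, where 40.7% of all genes passed, and 1 with array weights (2.1% of all genes) or without array 2, a range of 0 to 1 over left-out arrays. Probes passing numbered 5 of 20 with median centring (37.6% of all probes), 4 with array weights (6.08% of all probes) and 0 to 1 over left-out arrays. Median centring shifts the median of all genes to 0.23, so its signs are relative to that: Cacnb2 read 0.37 (adjusted p = 0.0419), Cacna1d read -0.041 and Cacna2d2 turned to 0.19. Ratios near 0 turned negative: Cacna1h with a running median removed (-0.0071), the mean of probes (-0.033), array weights (-0.061) and left-out arrays (-0.10 to 0.078, the lowest without array 2); Cacna1c with the mean of probes (-0.013), array weights (-0.030) and left-out arrays (-0.049, without array 2, to 0.096); and Cacna2d1 with array weights (-0.00012). The causes were not tested. All tests used the ratio within an array, which pairs 1 mutant with 1 control pool. The dim Cacna1g probe had 30.7 to 79.5 units of signal over background in mutant pools and 31.4 to 71.1 in control pools.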
